A study of Mus musculus with 9 samples.

Results

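Genes for 8 cell surface glycoproteins that act as selectin ligands or adhesion receptors were described across 3 subsets of mouse monocytes. They were Spn, Selplg, Cd164, Cd44, Icam1, Vcam1, Pecam1 and L1cam, chosen by name for their shared role in adhesion, and make up 8 of the 46517 gene IDs in the table. All 8 had enough counts to be tested, among 14059 genes in all.

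Sequencing covered monocytes that the labels describe as primary, wild type and C57BL/6 in background and as derived in vitro, with 3 libraries each, numbered 0, 1 and 2, of patrolling monocytes (pMo), intermediate monocytes (intMo) and conventional monocytes (cMo). The series title places these cells in bone marrow cultures with OP9-DLL1, a stromal cell line that presents Delta-like 1 to Notch receptors, and the same strain, genotype and culture origin are labelled for every group. No label states that libraries of 1 subset were made from different animals or cultures, so p-values measure only the spread between these libraries, which may be technical. The sorting of the subsets is not described in the labels, and the series' design text repeats the conventional subset where the sample labels have the patrolling one.

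Leukocytes leave the blood in steps. Selectins on endothelium, platelets and leukocytes catch mucin-like glycoproteins, whose sugars must carry sialic acid and fucose to be bound, and the cell rolls. Integrins then bind members of the immunoglobulin family such as ICAM-1 and VCAM-1, which stops the cell, and PECAM-1 takes part in the passage between endothelial cells. Patrolling monocytes are known for crawling along the inner wall of vessels, which depends on the integrin of Itgal and Itgb2, and high surface CD43, the product of Spn, is among the markers used to tell them from conventional monocytes in mice.

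Libraries held 18455116 to 29985684 estimated counts. Library 0 stood apart from the other libraries within each subset. Correlations of log2 CPM (counts relative to the TMM-normalized size of each library) were 0.986 to 0.99 between libraries 1 and 2 of a subset and 0.951 to 0.975 with library 0. IntMo library 0 correlated at 0.963 with pMo library 0, against 0.951 and 0.962 with the other intMo libraries. The marker lists followed the labels, since 7 patrolling genes summed to 7865 to 10512 CPM in pMo, 2935 to 4003 in intMo and 387 to 541 in cMo, and 7 conventional genes to 602 to 920 CPM in pMo, 1095 to 2142 in intMo and 4796 to 8845 in cMo. Granulocyte and progenitor genes summed to 12289, 2211 and 2482 CPM in cMo libraries 0, 1 and 2. In intMo they summed to 476, 4036 and 3759 CPM, and in pMo to 558, 2459 and 2529 CPM. Library 0 thus held most of these transcripts in cMo and least in intMo and pMo. Lymphoid genes stayed at 3.53 to 17.8 CPM in all 9. Because libraries 0 stood apart, each member is given below with all libraries and with libraries 1 and 2 alone.

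The promoters of the 4 members below are shown because their transcripts followed 3 different courses across the subsets and because Icam1 is a textbook target of NF-kB. Each window is taken from RefSeq on GRCm38.p6 and runs 5′ to 3′ on the gene's strand from 250 bases before to 50 bases after a transcript start. In the Icam1 window the capitals mark a match to the NF-kB site GGAAATTCC and a TATA box, TATAAA. In the others they mark CG dinucleotides.
Icam1, chr9:21015690-21015989, plus strand: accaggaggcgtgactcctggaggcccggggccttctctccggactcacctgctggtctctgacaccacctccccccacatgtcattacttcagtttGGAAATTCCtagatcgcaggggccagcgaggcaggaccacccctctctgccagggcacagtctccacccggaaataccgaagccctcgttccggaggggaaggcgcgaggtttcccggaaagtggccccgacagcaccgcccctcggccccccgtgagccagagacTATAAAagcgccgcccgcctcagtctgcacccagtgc
Spn, chr7:127137774-127138073, minus strand: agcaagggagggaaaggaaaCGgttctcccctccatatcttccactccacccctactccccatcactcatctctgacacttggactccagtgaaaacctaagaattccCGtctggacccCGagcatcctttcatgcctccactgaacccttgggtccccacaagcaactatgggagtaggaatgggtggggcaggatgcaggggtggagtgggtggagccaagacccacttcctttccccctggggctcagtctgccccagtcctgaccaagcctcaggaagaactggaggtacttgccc
L1cam, chrX:73880785-73881084, minus strand: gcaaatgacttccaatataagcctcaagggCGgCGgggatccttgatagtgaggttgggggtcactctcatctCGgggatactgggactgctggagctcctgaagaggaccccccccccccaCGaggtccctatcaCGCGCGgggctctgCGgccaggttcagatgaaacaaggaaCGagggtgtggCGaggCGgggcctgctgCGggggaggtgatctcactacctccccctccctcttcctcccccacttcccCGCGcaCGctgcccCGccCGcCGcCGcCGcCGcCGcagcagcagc
Cd164, chr10:41519250-41519549, plus strand: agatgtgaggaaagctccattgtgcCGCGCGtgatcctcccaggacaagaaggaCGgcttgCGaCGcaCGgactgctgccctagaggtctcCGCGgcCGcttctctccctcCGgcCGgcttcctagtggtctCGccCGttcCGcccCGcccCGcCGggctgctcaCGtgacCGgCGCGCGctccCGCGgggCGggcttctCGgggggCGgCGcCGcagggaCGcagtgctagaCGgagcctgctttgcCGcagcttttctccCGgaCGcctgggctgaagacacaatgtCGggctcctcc

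The windows differed in base composition. The Spn window held 3 CG dinucleotides, 0.124 of the number its base composition would give, in 57.3% GC. The L1cam window held 22 (ratio 0.657, 67.0% GC) and the Cd164 window 36 (ratio 0.982, 70.0% GC), while over 32851 RefSeq windows the medians were a ratio of 0.384 and 52.7% GC. L1cam has further annotated starts, and gene-level counts do not tell them apart. The NF-kB site of Icam1 began 153 bases before the RefSeq start and 198 bases before the start that GENCODE annotates. The TATA box lay 166 bases after the NF-kB site, 32 bases before the GENCODE start but downstream of the RefSeq start. Searched on both strands, GGAAATTCC occurred in 0.317% of all windows and TATAAA in 13.6%, and among the 5 members with a window (also Cd44) both were found in Icam1 alone. Only these exact letters were searched. Other forms of an NF-kB site were not counted, so neither the share nor the members without a match speak for NF-kB sites in general. The GC box GGGCGG, present in 35.7% of windows, was found in Icam1, L1cam, Cd164 and Cd44. TGGGAA, the core of sites for the Notch effector RBPJ and present in 25.6% of windows, was found in Cd44. Of the 5 members, 0 held the letters searched for NR4A (AAAGGTCA, in 1.51% of windows), PU.1 (GAGGAAGT, 3.2%) or AP-1 (TGANTCA with any base at N, 7.81%). These are letter matches in short windows and say nothing of binding.

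The members did not move together across the subsets. L1cam and Spn were highest in pMo and lowest in intMo, and Cd164 ran the other way, highest in intMo and lowest in pMo. Icam1 was highest in pMo and lowest in cMo, and Vcam1 was highest in intMo and lowest in cMo. The libraries of all 3 subsets were free of overlap for these 5 genes, which held for 9.89% of all genes tested. Pecam1 was higher in pMo than in cMo, while Selplg and Cd44 passed no comparison in the edgeR fit of all 9 libraries with subset as the only term. An edgeR F test for any difference among the subsets called 6 of the 8 members, against 33% of genes tested, with adjusted p of 2.9e-05 for L1cam and 0.041 for Pecam1 at the ends, and with 0.0936 for Selplg and 0.129 for Cd44.

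**Figure D1:**
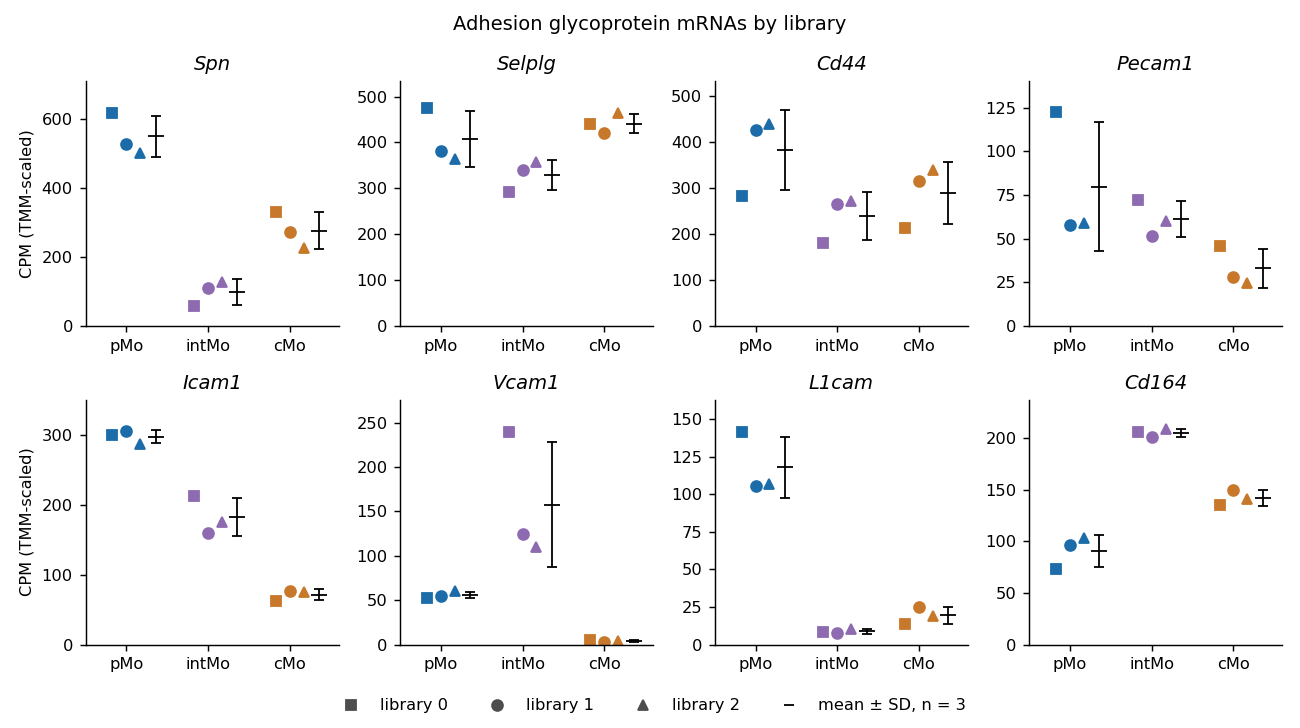
CPM of the 8 members in each library, 1 panel per gene, with pMo left of intMo and cMo; points are libraries and bars the mean ± SD of 3. Spn and L1cam peaked in pMo and Cd164 in intMo, while Vcam1 lay at 3.06 to 4.89 CPM in every cMo library and at 52.7 CPM or more in all others.

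Spn (ENSMUSG00000051457.6, chromosome 7, 127132232 to 127137823 in GRCm38, protein coding) encodes CD43, a large sialomucin that extends from the surface of most leukocytes and can bind E-selectin when suitably glycosylated. It had 619, 529 and 504 CPM in pMo libraries 0, 1 and 2, against 57.2, 111 and 129 CPM in intMo and 332, 273 and 227 CPM in cMo. No library of one subset overlapped another, with every pMo library at the top and every intMo library at the bottom. Spn was 5.54-fold higher in pMo than in intMo (log2 2.47 ± 0.29 SE, edgeR adjusted p = 0.00245). It fell in intMo relative to cMo (log2 -1.48 ± 0.28, edgeR adjusted p = 0.00587). The rise in pMo over cMo was smaller (1.99-fold, log2 0.99 ± 0.28, edgeR adjusted p = 0.0224) and its call was lost without cMo library 1, cMo library 2, pMo library 0 or pMo library 1, with adjusted p between 0.0548 and 0.0759. With libraries 1 and 2 alone, the log2 changes of Spn were 1.05 for pMo against cMo, -1.05 for intMo against cMo and 2.10 for pMo against intMo, all called. In bulk RNA, fewer cells that carry a transcript cannot be told apart from less of it per cell.

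Cd164 (ENSMUSG00000019818.14, chromosome 10, 41519414 to 41531048, protein coding) encodes endolyn, a smaller sialomucin of endosomes and the cell surface that takes part in adhesion of blood progenitors. It had 73.4, 96.4 and 103 CPM in pMo libraries 0, 1 and 2, against 206, 201 and 209 CPM in intMo and 135, 150 and 141 CPM in cMo. The order was the reverse of that of Spn, again with no overlap. Cd164 fell in pMo relative to intMo (log2 -1.17 ± 0.14, edgeR adjusted p = 0.00264) and relative to cMo (log2 -0.64 ± 0.14, edgeR adjusted p = 0.00729). Its rise in intMo over cMo (1.44-fold, log2 0.53 ± 0.14, edgeR adjusted p = 0.0232) was lost without cMo library 0, cMo library 2, intMo library 0 or intMo library 2, with adjusted p between 0.0538 and 0.0697. The log2 changes of Cd164 with libraries 1 and 2 alone were -1.04 against intMo and -0.54 against cMo in pMo, and 0.50 in intMo against cMo, all called.

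Selplg (ENSMUSG00000048163.12, chromosome 5, 113818536 to 113832644, protein coding) encodes PSGL-1, the main ligand of P-selectin on leukocytes, which also binds E-selectin. It had 476, 382 and 365 CPM in pMo libraries 0, 1 and 2, against 293, 339.8 and 357 CPM in intMo and 441, 420.0 and 463 CPM in cMo. The intMo libraries lay below all others, and those of pMo and cMo overlapped. The log2 difference of intMo from cMo was -0.42 ± 0.14 (edgeR adjusted p = 0.0566), that of pMo from cMo -0.11 ± 0.14 (0.562) and that of pMo from intMo 0.31 ± 0.14 (0.285), so none was called. DESeq2 called Selplg in intMo against cMo (adjusted p = 0.0223). Those of Selplg with libraries 1 and 2 alone were -0.34, -0.24 and 0.10 in the same order, with no call.

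Per kilobase of merged exons, Spn exceeded Selplg in pMo and was below it in the other subsets. The ratio of Spn to Selplg was 1.24 ± 0.0444 in pMo, 0.269 ± 0.0805 in intMo and 0.576 ± 0.122 in cMo (mean ± SD, n = 3 libraries each). The libraries of the 3 subsets did not overlap in this ratio. Its level depends on the length chosen, since with the longest coding transcript of each gene Selplg came first in pMo too.

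Cd44 (ENSMUSG00000005087.16, chromosome 2, 102811141 to 102901665, protein coding) encodes the receptor of hyaluronan, and a glycosylated form of it binds E-selectin. It had 282, 426 and 439 CPM in pMo libraries 0, 1 and 2, against 179.8, 265 and 272 CPM in intMo and 212, 315 and 339.8 CPM in cMo. Library 0 was the lowest of each subset, and apart from pMo and intMo the subsets overlapped. The log2 difference of Cd44 was 0.40 ± 0.25 in pMo against cMo (edgeR adjusted p = 0.237), -0.27 ± 0.25 in intMo against cMo (0.455) and 0.68 ± 0.25 in pMo against intMo (0.174). With libraries 1 and 2 alone, the differences of pMo were 0.41 from cMo and 0.69 from intMo and both were called (edgeR adjusted p = 0.017 and 0.0033), whereas intMo against cMo was -0.28 (0.0889). With the library number added as a block to the fit of all 9 libraries, Cd44 was called higher in pMo than in cMo and intMo (edgeR adjusted p = 0.0224 and 0.0138).

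**Figure D2:**
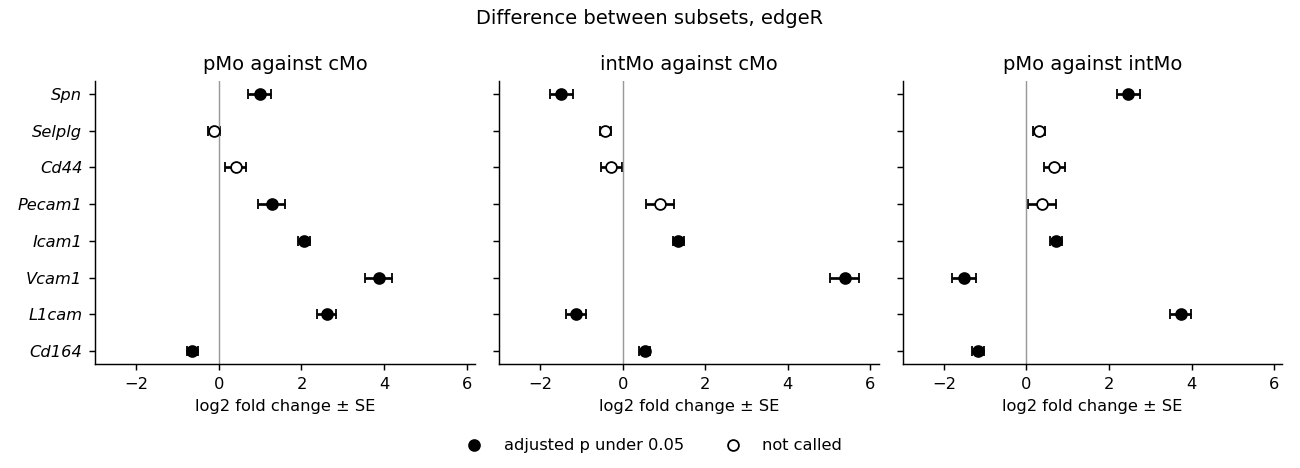
Log2 fold change ± SE of each member in pMo against cMo, intMo against cMo and pMo against intMo, from 1 edgeR fit of 9 libraries; filled points had an adjusted p under 0.05. Spn and L1cam lay above 0 in both comparisons of pMo and below 0 in intMo against cMo, and Cd164 showed the opposite signs.

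Icam1 (ENSMUSG00000037405.7, chromosome 9, 21015985 to 21028817, protein coding) encodes ICAM-1, which the integrins of Itgb2 with Itgal or Itgam bind. It had 299.98, 305 and 287 CPM in pMo libraries 0, 1 and 2, against 212, 159 and 175 CPM in intMo and 62.3, 77.0 and 74.8 CPM in cMo. The 3 subsets formed a step with no overlap. Icam1 rose 4.17-fold in pMo over cMo (log2 2.06 ± 0.15, edgeR adjusted p = 2.98e-05) and 2.55-fold in intMo over cMo (log2 1.35 ± 0.14, edgeR adjusted p = 0.000388). The further 1.63-fold rise of pMo over intMo (log2 0.71 ± 0.14, edgeR adjusted p = 0.0219) was lost without intMo library 1, intMo library 2 or any 1 pMo library, with adjusted p between 0.0632 and 0.103. For Icam1, the log2 changes with libraries 1 and 2 alone were 1.97, 1.14 and 0.83 in the same order, all called.

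A list of genes known as NF-kB targets, chosen with earlier results of these data known, was set beside Icam1. Its counts are a description only. Of 15 listed, 15 were called higher in pMo against cMo (median log2 2.44, against 0.03 over all genes), 10 in intMo against cMo (median 1.45) and 9 in pMo against intMo (median 0.98), and 0 were called lower. The share of all genes called higher was 17.2%, 14% and 3.29% in these comparisons. Their summed level was 4195, 3561 and 3530.3 CPM in pMo libraries 0, 1 and 2, against 2901, 2198 and 2013 CPM in intMo and 561, 806 and 779 CPM in cMo. Traf1, an adaptor of TNF receptors, had 136 ± 16.8 CPM in pMo and 2.03 ± 1.20 CPM in cMo (log2 6.06 ± 0.49, edgeR adjusted p = 6.96e-05). Il1b, the cytokine interleukin-1 beta, had 1457 ± 161 CPM in pMo and 36.9 ± 6.03 CPM in cMo (log2 5.30 ± 0.24, edgeR adjusted p = 2.67e-06). For the chemokine gene Cxcl1, values were 2.13 ± 0.676 CPM in pMo, 2.98 ± 1.90 CPM in intMo and 0 counts in all cMo libraries. Stromal markers, given below, were also higher in pMo and intMo than in cMo. The parts of NF-kB and of stromal RNA in the differences of Icam1 and of this list were not tested.

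Vcam1 (ENSMUSG00000027962.13, chromosome 3, 116109949 to 116129688, protein coding) encodes VCAM-1, the ligand of the integrin of Itga4 and Itgb1, made by activated endothelium, stromal cells and some macrophages. It had 52.7, 54.4 and 60.1 CPM in pMo libraries 0, 1 and 2, against 239, 125 and 109 CPM in intMo and 4.89, 3.06 and 3.42 CPM in cMo. The cMo values rest on 136, 87.0 and 94.8 estimated counts. All intMo libraries lay above all pMo libraries and these above all cMo libraries, and intMo library 0 was farther from the other intMo libraries than those were from pMo. Vcam1 rose 41.6-fold in intMo over cMo (log2 5.38 ± 0.35, edgeR adjusted p = 3.17e-05) and 14.7-fold in pMo over cMo (log2 3.88 ± 0.33, edgeR adjusted p = 7.75e-05), the largest changes among the 8 members in these comparisons. It fell in pMo relative to intMo (log2 -1.50 ± 0.29, edgeR adjusted p = 0.0195), a call that was lost without any 1 pMo library, with adjusted p between 0.0689 and 0.0913. With libraries 1 and 2 alone the log2 changes of Vcam1 were 5.18 in intMo and 4.15 in pMo against cMo and -1.03 in pMo against intMo, all called.

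Most stromal cell markers tested were, like Vcam1, higher in pMo and in intMo than in cMo. Of 13 tested stromal genes of 15 listed, 12 were called higher in pMo against cMo, 12 in intMo against cMo and 0 in pMo against intMo. The share of all genes called higher was 17.2%, 14% and 3.29% in these comparisons. They summed to 569, 363 and 303 CPM in pMo libraries 0, 1 and 2, against 836, 254 and 317 CPM in intMo and 28.8, 23.9 and 22.4 CPM in cMo. Col1a2, a collagen chain, had 49.7 ± 23.2 CPM in pMo, 57.6 ± 47.9 CPM in intMo and 1.37 ± 1.09 CPM in cMo. Cxcl12, a chemokine of marrow stroma, had 79.1 ± 13.4, 93.9 ± 38.6 and 2.81 ± 0.742 CPM in the same order, and Dll1, the ligand carried by OP9-DLL1, had 13.1 ± 7.27, 17.6 ± 16.9 and 0.644 ± 0.486 CPM. Dcn, the gene of the matrix protein decorin, chosen after its values were seen, was at 0 counts in all 9 libraries. The median log2 change of the stromal genes in pMo against intMo was -0.21. In library 0 the stromal sum was 569 CPM in pMo and 836 CPM in intMo, and Vcam1 was 52.7 and 239 CPM. In libraries 1 and 2 the stromal sum was 303 to 363 CPM in pMo and 254 to 317 CPM in intMo. Vcam1 was 54.4 to 60.1 CPM in pMo and 109 to 125 CPM in intMo in these libraries. The part of stromal RNA in the Vcam1 differences, from cMo and between pMo and intMo, was not tested.

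**Figure D3:**
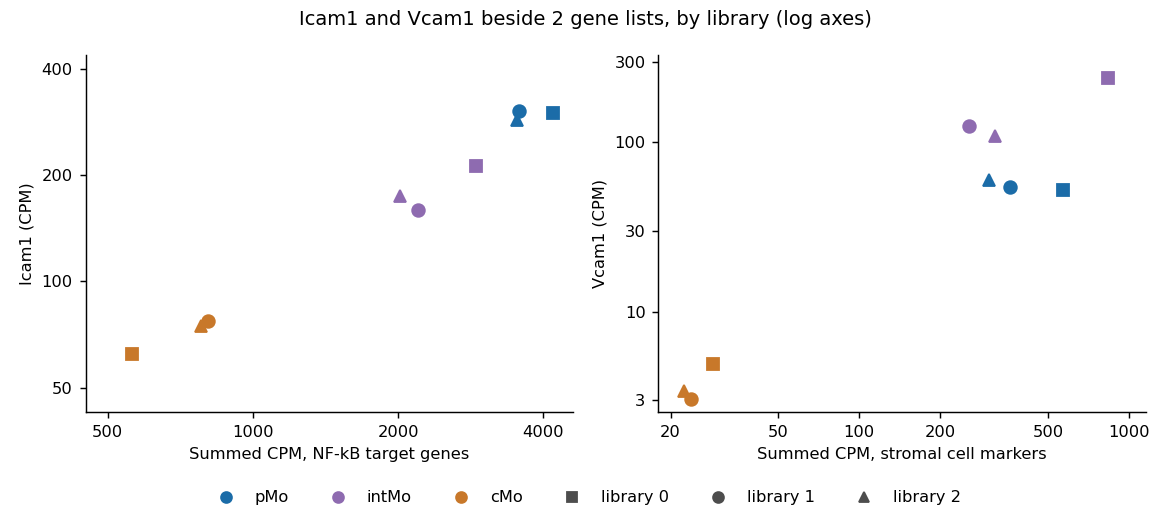
Left, Icam1 against the summed NF-kB target genes, and right, Vcam1 against the summed stromal markers, in CPM on log axes, 1 point per library. The cMo libraries lie at the lower left in both panels, and in the right panel pMo and intMo overlap along the stromal axis but not along the Vcam1 axis.

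Pecam1 (ENSMUSG00000020717.18, chromosome 11, 106654217 to 106750628, protein coding) encodes PECAM-1, which binds itself on the facing cell at endothelial junctions and is also present on platelets and leukocytes. It had 122, 57.7 and 59.1 CPM in pMo libraries 0, 1 and 2, against 72.2, 51.6 and 60.3 CPM in intMo and 45.7, 28.2 and 24.8 CPM in cMo. Library 0 was the highest of each subset, pMo and intMo overlapped, and both lay above cMo. Pecam1 rose 2.42-fold in pMo over cMo (log2 1.28 ± 0.34, edgeR adjusted p = 0.0178), a call that was lost without cMo library 1 or cMo library 2 (adjusted p = 0.0583 and 0.0636). The log2 difference of intMo from cMo was 0.90 ± 0.33 (edgeR adjusted p = 0.0803) and that of pMo from intMo 0.38 ± 0.33 (0.634). Without pMo library 0 the last difference turned to -0.064. With libraries 1 and 2 alone, Pecam1 was called higher in pMo (log2 1.14) and in intMo (log2 1.082, edgeR adjusted p = 0.000628) than in cMo, while the difference of pMo from intMo was 0.061.

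Markers of endothelium and platelets, which also carry PECAM-1, were measured beside it. The 11 endothelial genes listed summed to 34.8, 26.6 and 26.8 CPM in pMo libraries 0, 1 and 2, against 20.7, 21.2 and 24.4 CPM in intMo and 27.6, 12.97 and 13.4 CPM in cMo. Of 7 tested, 2 were called higher and 1 lower in pMo against cMo, beside 17.2% and 15.9% of all genes. Cldn5 and Robo4, a junction protein and a receptor of endothelium, chosen after their values were seen, were at 0 counts in all 9 libraries. Vwf, which endothelium and megakaryocytes make, had 15.6 ± 7.08 CPM in pMo, 6.99 ± 1.52 CPM in intMo and 2.66 ± 0.442 CPM in cMo. The 8 platelet and megakaryocyte genes summed to 8.19 to 20.3 CPM in pMo, 18.4 to 63.0 CPM in intMo and 13.6 to 48.9 CPM in cMo, and in cMo libraries 1 and 2 their sum of 38.3 and 48.9 CPM exceeded Pecam1. Their part in the Pecam1 difference was not tested.

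L1cam (ENSMUSG00000031391.17, chromosome X, 73853778 to 73896105, protein coding) encodes L1, best known as a neural adhesion molecule, which binds itself and integrins and is tied to the cytoskeleton by ankyrins. It had 141, 105 and 107 CPM in pMo libraries 0, 1 and 2, against 8.20, 7.68 and 10.5 CPM in intMo and 13.9, 24.8 and 19.3 CPM in cMo. Every pMo library was far above every other library, and the intMo libraries were all below those of cMo. L1cam rose 13.4-fold in pMo over intMo (log2 3.74 ± 0.25, edgeR adjusted p = 0.000194) and 6.10-fold in pMo over cMo (log2 2.61 ± 0.24, edgeR adjusted p = 0.000109). It fell in intMo relative to cMo (log2 -1.13 ± 0.23, edgeR adjusted p = 0.0085), and all 3 calls held under every alternative tried. For L1cam, libraries 1 and 2 alone gave log2 changes of 3.54, 2.27 and -1.26 in the same order. Of 13 annotated L1cam transcripts, 1 shares 100 exon bases with Arhgap4, a neighbour on the same strand that had 286 ± 15.6 CPM in pMo, 256 ± 1.25 CPM in intMo and 189 ± 1.45 CPM in cMo. The part of shared reads in the L1cam values was not tested.

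The calls of the members are set here beside those of all genes. In pMo against cMo, 5 of 8 rose and 1 fell, against 17.2% and 15.9% of all genes, and 6 of 8 had no overlap between libraries, against 49.5%. In intMo against cMo, 3 rose and 2 fell, against 14% and 10.4%, and 7 had no overlap, against 41.3%. In pMo against intMo, 3 rose and 2 fell, against 3.29% and 1.69%, and 7 had no overlap, against 27.7%. In either direction, 33.1%, 24.4% and 4.99% of genes were called in the 3 comparisons. The median log2 change of the 8 members was 1.13, 0.13 and 0.53, against 0.03, -0.01 and -0.02 over all genes. The comparisons share libraries, so their counts are not independent, and with 8 members chosen with earlier results of these data known they are a description only.

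Levels of different genes were compared per kilobase of merged exons. The 8 members together reached 415, 387 and 378 CPM per kb in pMo libraries 0, 1 and 2, against 242, 247 and 262 in intMo and 259.9, 263 and 263 in cMo. Every pMo library was above all others, while intMo and cMo overlapped. Spn led in pMo with 118 ± 12.9 CPM per kb and overlapped with Selplg at 95.4 ± 14.1, followed by Icam1 at 68.2 ± 2.06 and Cd44 at 56.4 ± 12.8. Selplg led in intMo with 77.2 ± 7.71 CPM per kb, with Cd164 at 46.1 ± 0.886, Icam1 at 41.8 ± 6.21 and Cd44 at 35.3 ± 7.60 overlapping as neighbours. Selplg also led in cMo with 103 ± 5.06 CPM per kb, followed by Spn at 59.2 ± 11.3, Cd44 at 42.6 ± 9.998 and Cd164 at 31.9 ± 1.65, of which Spn and Cd44, and Cd44 and Cd164, overlapped.

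The make-up of this sum differed between the subsets. Spn made up 29.9% ± 1.74 of the summed level per kb in pMo, 8.40% ± 2.94 in intMo and 22.6% ± 4.46 in cMo (mean ± SD of 3 libraries). Selplg made up 24.2%, 30.8% and 39.5% in the same order, and Icam1 17.4%, 16.7% and 6.25%. Vcam1, L1cam and Pecam1 had the lowest mean shares, with Vcam1 at 1.60%, 7.18% and 0.163% and L1cam at 4.07%, 0.477% and 1.003%. Shares sum to the whole, so a rise of one lowers the others.

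**Figure D4:**
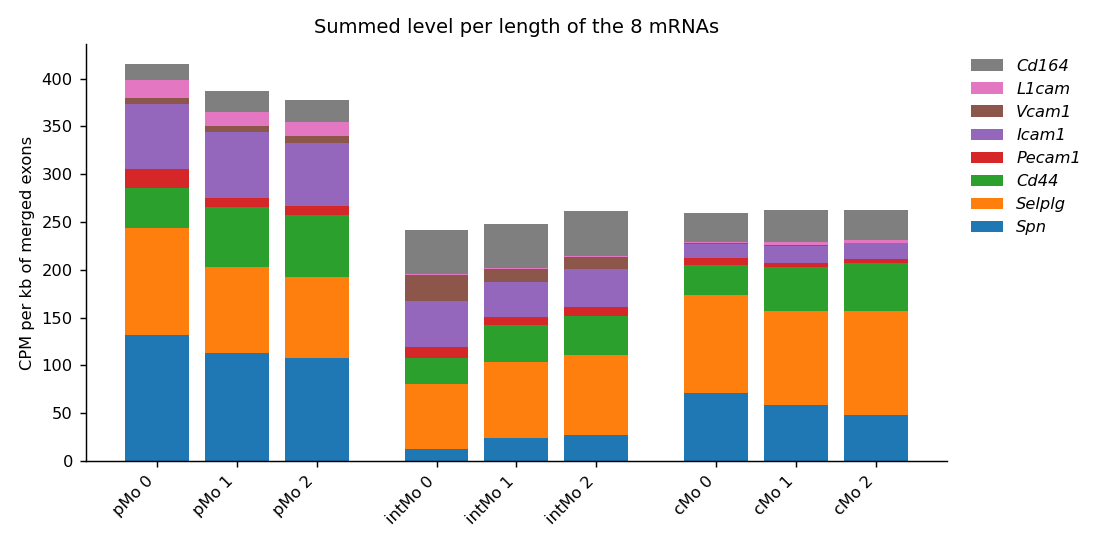
Stacked level of the 8 members per library, in CPM per kb of merged exons, with pMo left of intMo and cMo. The pMo columns reach 378 to 415, against 242 to 263 in all other libraries, and the Spn segment is tallest in pMo.

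The genes with the pattern most like each member were taken by Pearson correlation of log2 CPM over the 9 libraries, which share the subsets and the differences of library 0, so the values only describe likeness. For Spn they were Ubash3b (r = 0.974), Arhgef1 (0.97) and Atg4d (0.97), for Cd164 Arhgap19 (0.946) and Fcgr3 (0.939), and for Selplg Nemp2 (0.954), Rara (0.915) and Card9 (0.911). Cd44 was most like Ap1s2 (0.987), Ppp1r12a (0.97) and Grk5 (0.966). Icam1 was most like Nfkbiz (0.996), Man1a (0.994) and Ccl3 (0.993). Vcam1 was most like Rhoh (0.994), Htr7 (0.993) and Adgrg5 (0.989). L1cam was most like Arhgef10l (0.995), Myo1g (0.994) and Osbpl8 (0.986), and Pecam1 like Socs3 (0.974), Adam8 (0.967) and Ube2h (0.964). Among members, r was 0.888 between Spn and L1cam, -0.927 between Spn and Cd164 and -0.948 between L1cam and Cd164.

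On the other side of the bond, the selectins of platelets and endothelium were low in these cells. Selp, P-selectin, had 0.491 ± 0.199 CPM in pMo, 0.173 ± 0.150 CPM in intMo and 1.36 ± 0.570 CPM in cMo, and fell in intMo relative to cMo (log2 -2.85 ± 0.72, edgeR adjusted p = 0.0208), and without cMo library 0 this call was lost (0.059). Sele, E-selectin, had too few counts to be tested.

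Enzymes that build the sugars of selectin ligands changed in both directions. Of 18 tested, 8 rose and 5 fell in pMo against cMo (median log2 0.45), where 17.2% of all genes rose and 15.9% fell. In intMo against cMo 4 rose and 5 fell (median 0.13, against 14% and 10.4% of all genes), and in pMo against intMo 3 rose and 0 fell (median 0.10, against 3.29% and 1.69%). C1galt1c1, the chaperone needed for the core of mucin-type sugars, had 17.1 ± 4.96 CPM in pMo, 28.6 ± 14.1 CPM in intMo and 92.1 ± 17.2 CPM in cMo (pMo against cMo, log2 -2.43 ± 0.38, edgeR adjusted p = 0.00173). B3gnt3, which extends that core, fell in pMo relative to cMo (log2 -1.54 ± 0.33, edgeR adjusted p = 0.00715), with 0.658 ± 0.0859 CPM in pMo and 1.92 ± 0.418 CPM in cMo. St3gal6, a sialyltransferase, had 3.56 ± 0.699 CPM in pMo and 0.918 ± 0.172 CPM in cMo (log2 1.95 ± 0.63, edgeR adjusted p = 0.0407), a call lost without any 1 of 7 libraries (up to 0.11). The next genes were chosen after their values were seen.

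Fut7 and Fut4, the fucosyltransferases that finish the selectin-binding sugar in leukocytes, differed in opposite directions. Fut7 had 15.6 ± 2.08 CPM in pMo, 13.4 ± 2.12 CPM in intMo and 25.0 ± 2.15 CPM in cMo. It fell in pMo relative to cMo (log2 -0.68 ± 0.17, edgeR adjusted p = 0.014, and 0.0531 without pMo library 0) and in intMo relative to cMo (log2 -0.90 ± 0.17, edgeR adjusted p = 0.00601). Fut4 had 47.8 ± 5.55 CPM in pMo, 33.1 ± 3.90 CPM in intMo and 25.4 ± 3.10 CPM in cMo, and rose in pMo over cMo (log2 0.91 ± 0.15, edgeR adjusted p = 0.00223). B4galt1, a galactosyltransferase, and Slc35c1, the transporter of GDP-fucose, fell in pMo relative to cMo (log2 -0.85 ± 0.13 and -0.95 ± 0.17, edgeR adjusted p = 0.00164 and 0.0033). Galnt3, Gcnt1, Galnt1, St3gal4 and C1galt1 of the same list rose in pMo over cMo, by log2 1.14, 0.83, 0.67, 0.51 and 0.51. Their edgeR adjusted p were 0.00462, 0.0192, 0.00164, 0.0176 and 0.0244, and their calls were not followed under other settings. St3gal1, which caps the mucin core with sialic acid, had 219.5 ± 5.38 CPM in pMo, 93.7 ± 9.996 CPM in intMo and 80.1 ± 17.7 CPM in cMo. It rose in pMo over both cMo (log2 1.45 ± 0.17, edgeR adjusted p = 0.000392) and intMo (log2 1.23 ± 0.17, edgeR adjusted p = 0.00464). Of 3 tested genes for other sialomucins and selectin ligands, 1 was called in pMo against cMo, beside 33.1% of all genes. It was the sialomucin gene Cd34, which fell in pMo relative to cMo (log2 -1.73 ± 0.24, edgeR adjusted p = 0.000853).

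Of 9 integrin subunits that bind the members, 7 rose and 0 fell in pMo against cMo (median log2 1.46), where 17.2% of all genes rose and 15.9% fell. In intMo against cMo 3 rose and 2 fell (median 0.34, against 14% and 10.4% of all genes), and in pMo against intMo 5 rose and 0 fell (median 0.84, against 3.29% and 1.69%). Of the partners of ICAM-1, Itgal had 1665 ± 116 CPM in pMo, 770.5 ± 169 CPM in intMo and 607 ± 96.7 CPM in cMo (pMo against cMo, log2 1.46 ± 0.18, edgeR adjusted p = 0.000581). Itgb2, its beta chain, rose in pMo over cMo (log2 0.94 ± 0.11, edgeR adjusted p = 0.00035) and over intMo (log2 0.75 ± 0.11, edgeR adjusted p = 0.00592). Itgax, which is also a patrolling marker, rose in pMo over cMo (log2 6.19 ± 0.25, edgeR adjusted p = 1.61e-06), while Itgam differed by 0.17 ± 0.15 (0.399). In intMo over cMo, Itgax rose as well (log2 5.35, edgeR adjusted p = 6.64e-06). Of the partners of VCAM-1, Itga4 had 1404 ± 251 CPM in pMo, 644 ± 144 CPM in intMo and 421 ± 150 CPM in cMo (pMo against cMo, log2 1.74 ± 0.28, edgeR adjusted p = 0.00178), Itgb1 rose (log2 1.18 ± 0.15, edgeR adjusted p = 0.000507) and Itgb7 differed by -0.59 ± 0.30 (0.168). Vcam1 itself was highest in intMo, and Itga4 and Itgb1 in pMo.

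Itgav and Itgb3, which form the vitronectin receptor that binds L1 and PECAM-1, rose in pMo over both other subsets. Itgb3 had 63.0 ± 14.3 CPM in pMo, 6.57 ± 1.76 CPM in intMo and 12.5 ± 2.81 CPM in cMo. Its libraries followed the order of L1cam, with log2 changes of 2.34 ± 0.26 in pMo against cMo (edgeR adjusted p = 0.000327), -0.92 ± 0.26 in intMo against cMo (0.0305) and 3.26 ± 0.28 in pMo against intMo (0.000689). The fall of Itgb3 in intMo lost its call in 6 of 17 settings, among them the fit to libraries 1 and 2 alone, with adjusted p up to 0.0847. Itgav rose by log2 2.09 ± 0.13 in pMo over cMo (edgeR adjusted p = 1.37e-05) and by 1.18 ± 0.13 in pMo over intMo (0.00156).

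**Figure D5:**
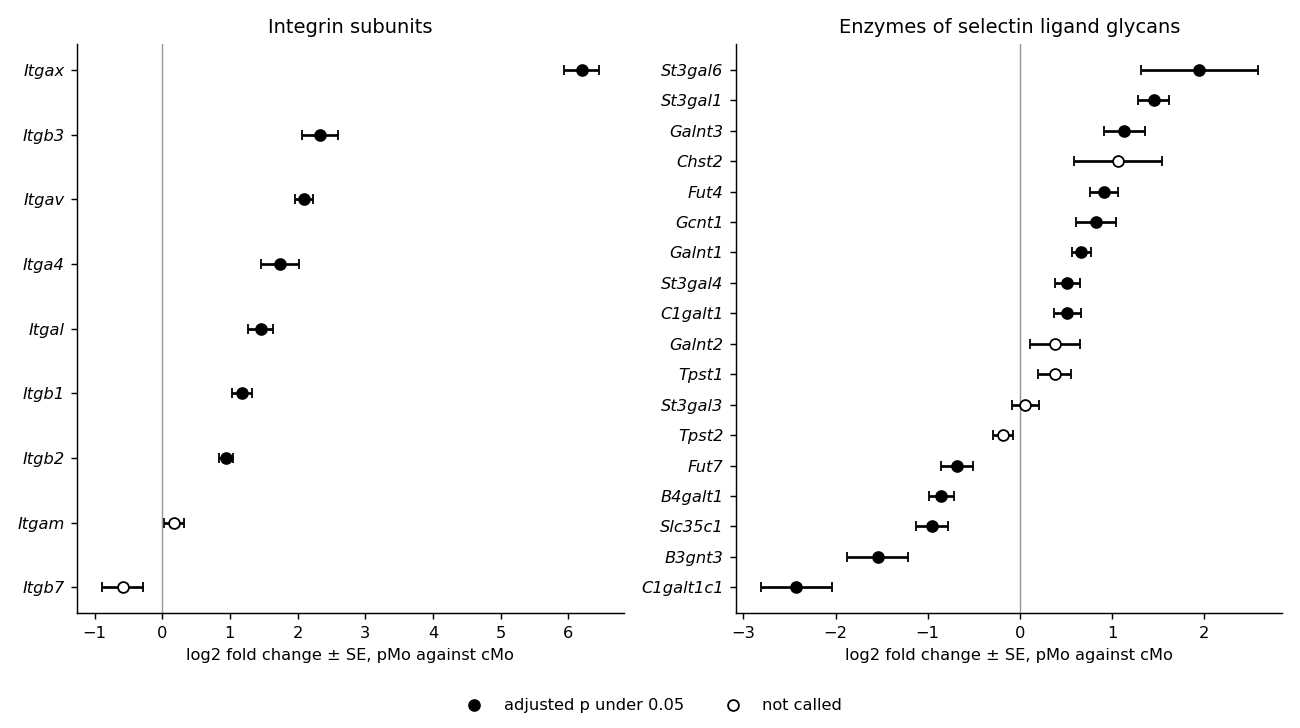
Log2 fold change ± SE in pMo against cMo of the integrin subunits that bind the members and of the enzymes that build selectin ligand sugars; filled points had an edgeR adjusted p under 0.05. All 7 called integrin subunits lie above 0, while 8 called enzymes lie above and 5 below.

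Genes that anchor or cut the members were also called in pMo against cMo. Of 11 cytoskeletal linkers, 6 rose and 1 fell, beside 17.2% and 15.9% of all genes. Msn, moesin, which ties Spn, Selplg, Cd44 and Icam1 to actin and was chosen after its value was seen, had 1268 ± 72.1 CPM in pMo, 746 ± 142 CPM in intMo and 825 ± 83.1 CPM in cMo. Its rise in pMo over cMo (log2 0.62 ± 0.16, edgeR adjusted p = 0.016) was lost without pMo library 1 or 2 (up to 0.0592). Syk, a kinase that works downstream of PSGL-1 and integrins, rose (log2 1.13 ± 0.19, edgeR adjusted p = 0.00241). Ank3, an ankyrin, rose at low levels (1.27 ± 0.874 CPM in pMo, 0.225 ± 0.140 CPM in cMo, log2 2.47 ± 0.70, edgeR adjusted p = 0.0245) and Actn1, an actinin, rose (log2 1.14 ± 0.36, edgeR adjusted p = 0.0362). Ank3 overlapped between the subsets, with 0.329 CPM in pMo library 0 and 0.387 CPM in cMo library 1. Its call was lost without any 1 of 4 libraries (up to 0.091) and that of Actn1 in 8 of 17 settings (up to 0.107). Actn1 was highest in intMo, with 251 ± 50.5 CPM, against 132 ± 3.66 CPM in pMo and 59.9 ± 36.1 CPM in cMo. Its rise in intMo over cMo (log2 2.07, edgeR adjusted p = 0.00451) kept its call in all 17 settings.

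Of 10 sheddases and their inhibitors, 6 rose in pMo against cMo, 6 in intMo against cMo and 0 in pMo against intMo, where 17.2%, 14% and 3.29% of all genes rose, and 0 fell. Mmp14, a membrane metalloproteinase that can cut CD44, had 229.7 ± 34.4 CPM in pMo, 110.3 ± 66.1 CPM in intMo and 3.07 ± 1.30 CPM in cMo (pMo against cMo, log2 6.22 ± 0.50, edgeR adjusted p = 6.92e-05). Timp1 and Timp3, inhibitors of such enzymes, rose in pMo over cMo (log2 2.99 ± 0.61 and 2.85 ± 0.61, edgeR adjusted p = 0.00557 and 0.00693) at levels of at most 2.36 ± 0.505 CPM. Mmp14, Timp1 and Timp3 are also made by stromal cells, whose markers differed in the same direction, and their part here was not tested. Of 5 hyaluronan genes tested, Hmmr, a hyaluronan-binding protein of dividing cells, fell in pMo relative to cMo (log2 -1.98 ± 0.60, edgeR adjusted p = 0.0333), a call lost in 7 of 17 settings (up to 0.101). Of 13 tested immunoglobulin family relatives, 5 rose and 1 fell in pMo against cMo, beside 17.2% and 15.9% of all genes. Pvr, a ligand of lymphocyte receptors, rose (log2 1.52 ± 0.13, edgeR adjusted p = 7.87e-05), as did Nectin2 (log2 1.55 ± 0.42, edgeR adjusted p = 0.0192, up to 0.0656 without 1 library) and Esam, an endothelial adhesion molecule, at 2.78 ± 0.228 CPM in pMo and 0.0589 ± 0.0731 CPM in cMo (log2 5.44 ± 0.68, edgeR adjusted p = 0.000538). Esam rose in intMo over cMo too (log2 4.45, edgeR adjusted p = 0.00205).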

How the data were processed

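The deposited values are estimated counts for each gene and library. The submitters' processing notes name kallisto 0.46.1 and the build mm10, and the RNA was extracted with RNAzol and made into libraries with a NEBNext Ultra II stranded mRNA kit, per the labels' protocols. Which annotation was used, how transcripts were summed to genes and whether strand was used in counting is not stated, which makes counts of overlapping genes uncertain. Of 46517 IDs, 46005 matched a symbol of GENCODE M21 on GRCm38, which gave coordinates and lengths. Promoter windows come from RefSeq, which held windows for 5 of the 8 members.

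Estimated counts were rounded. Genes were kept with filterByExpr by subset, scaled by TMM and fitted with subset as the term over all 9 libraries in edgeR 4.0.16 (quasi-likelihood F test, robust, R 4.3.3). Calls needed a p under 0.05 after Benjamini-Hochberg adjustment over 14059 genes. CPM were computed from effective library sizes and are given as mean ± SD of 3 libraries, and log2 changes with SE. No molecular identifiers are named, so reads may not be independent molecules. DESeq2 1.42.0, other scalings and filters, a replicate block, libraries 1 and 2 alone, the compared subsets alone and leaving out each library were tried.

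The members and lists were chosen with earlier results of these data known. By rule, all members, selectins and integrin partners are named, the 3 called genes with the largest change in pMo against cMo of every other list, the most abundant marker of each cell type list, and the 3 genes most correlated with each member among those with a mean of at least 20 CPM. Of the stromal list, Col1a2, Cxcl12 and Dll1 were named by rule, and Arhgap4 is named for its overlap with L1cam. Other genes outside this rule are said to be chosen after their values were seen. Some genes that the rule takes are not reported here.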

Additional observations from a re-analysis of the deposited data

How the results depend on the processing

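Over 17 settings, 23 of the 24 member comparisons kept their direction and 11 of the 16 called ones kept their call. The exception in direction was Pecam1 in pMo against intMo, at a log2 of -0.064 without pMo library 0 (edgeR adjusted p = 0.945) and at most 0.57 without any other single library. The 5 calls lost on leaving out single libraries are given with their genes above. Members called ranged over single libraries left out from 4 to 6 in pMo against cMo, 4 to 7 in intMo against cMo, 3 to 5 in pMo against intMo and 5 to 6 for any subset, with 3 without any 1 pMo library. Genes called ranged from 3138 to 4962, from 2337 to 3284 and from 221 to 1107 in the 3 comparisons. In intMo against cMo, 2213 genes were called with only these subsets in the fit, against 3433. In pMo against intMo, 1417 were called by DESeq2 and 2424 with libraries 1 and 2 alone, against 701. Libraries with the same number did not pair throughout (correlations of deviations 0.274 to 0.588 for pMo with intMo, -0.0156 to 0.23 for pMo with cMo and -0.143 to 0.0657 for intMo with cMo). Between pMo and intMo, library 0 of one correlated at -0.487 to -0.378 with libraries 1 and 2 of the other. Whether a number marks a shared culture or batch is not stated by the labels. With a replicate block, members called were 7, 6 and 6, and 7 for any subset, and genes called 4961, 3650 and 836, and not every library correlated best with its own number. The block called Cd44 in pMo against cMo and in pMo against intMo (edgeR adjusted p = 0.0224 and 0.0138). Levels per kb depend on the length chosen. With the longest coding transcript, Selplg was at 219.8 CPM per kb in pMo, against 95.4 with merged exons. Few counts limit the precision of Vcam1 in cMo and of Cxcl1, Timp1, Timp3, Selp, St3gal6, B3gnt3, Ank3 and Esam.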
